A study of Mus musculus with 287 samples.

Results

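The extracellular matrix of the developing brain was followed through 8 genes taken by symbol from the exon count table: the lecticans Ncan, Bcan and Vcan, the tenascin Tnc, the chondroitin sulphate carrying membrane proteins Ptprz1 and Cspg5, the link protein Hapln1 and the secreted protease inhibitor Serpine2. All 8 were among the 55359 gene identifiers of the table, of which 52083 matched a symbol. Their levels were read in every cell that the labels put in a clone and that had an exon count in at least 1000 genes, which were 87% of the labelled cells. These kept cells lay on 3 plates, with 90, 80 and 77 cells.

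The study sequenced single cells of mouse cerebral organoids, cultures grown from stem cells that form layers of neural progenitors and neurons, with 1 library for each cell. All cells carried the genotype MADM-11GT/TG;Emx1-CreER+/-, in which a Cre recombinase driven from the cortical progenitor gene Emx1 exchanges chromosome arms at a dividing cell so that its descendants are coloured as a clone. Recombination was induced in all of them with 60 nM 4-OHT at day 13, and the cells were collected at day 20. Clones were labelled SN (46 clones with a labelled size of 2 to 6 cells) or N (22 clones with a labelled size of 4 to 19 cells), letters that the labels do not spell out. Not every cell of a clone had a library, and 89.1% of the sequenced SN cells and 84.7% of the sequenced N cells were kept. No organoid or culture was named for a clone, so p-values over clones measure the spread between clones of this collection and may not cover the spread between cultures.

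Lecticans are large secreted core proteins that carry chondroitin sulphate chains, bind the polysaccharide hyaluronan at one end and tenascins at the other, and so tie the loose matrix between neural cells into a network; Hapln1 clamps the hyaluronan bond. Tenascin-C is a matrix glycoprotein of germinal zones and astrocytes. Ptprz1 is a receptor tyrosine phosphatase whose secreted form, phosphacan, is itself a matrix proteoglycan, and its ligands pleiotrophin and midkine bind the sugar chains. Radial glia, the progenitors that line the ventricle, are a known source of several of these proteins, while young neurons make Ncan as well.

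Total exon counts of the kept cells ran from 6171 to 13040432 with a median of 1517431, and the medians were 1365828 in SN and 1887117 in N cells. Every kept cell had counts from both marker lists used below, 14 radial glia and 14 excitatory neuron genes. Fabp7, a radial glia gene, was counted in 95.5% and Stmn2, a neuronal microtubule regulator, in 96.8% of cells. Summed microglial and endothelial markers had medians of 0.516 or less, in exon counts per 1000000 counts of the cell (CPM), in both classes defined below. Their sum still reached 100 CPM in 12 cells, all in the progenitor-leaning class, and 979 CPM in the highest. More cells reached 100 CPM for other lists, at 65 for mesenchyme and vessel wall and 60 for choroid plexus and hem. The numbers were 96 for Cajal-Retzius and 41 for GABAergic neuron markers.

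Ncan was the most widely counted of the 8 genes and Hapln1 the least. Exon reads of Ncan, the neurocan core protein, were found in 90.7% of kept cells (95% Wilson interval 86.4 to 93.7%), with a median of 436 CPM and a highest cell at 4754 CPM. Ptprz1 followed in 87.4% (82.7 to 91%) with a median of 180 CPM and a highest cell at 2989 CPM. These were the only members with a median above 100 CPM, and 76.1% and 66.8% of cells reached that level. Cspg5, a transmembrane proteoglycan also called neuroglycan C, was counted in 75.3% of cells with a median of 49.6 CPM and a highest cell at 1397 CPM. Vcan, the versican core protein, was counted in 70.4% with a median of 34.5 CPM and a highest cell at 3696 CPM, a shallow cell of 20834 exon counts. Serpine2, which blocks thrombin and plasminogen activators at the cell surface, was counted in 59.9% with a median of 11.5 CPM and a highest cell at 1820 CPM. Bcan and Tnc were found in fewer than every second cell, so their medians were 0. Bcan, the brevican core protein, had a count in 47.4% of cells (41.2 to 53.6%) and its highest cell stood at 1317 CPM. Tnc had a count in 46.2% (40.0 to 52.4%) and its highest cell stood at 774 CPM. Hapln1 exon reads were found in 44 cells (17.8%, 13.5 to 23.1%), of which 36 held only 1 to 3 counts. Its highest cell, in N clone 24, stood at 102.5 CPM. Intervals cover counting of cells only.

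Per kilobase of exon, the order of the mean levels changed below the first 2 places. Ncan stood at a mean of 99.9 CPM per kb and Ptprz1 at 21.9. Serpine2, Cspg5, Bcan and Vcan lay close together at 12.5, 11.4, 11.2 and 9.73 CPM per kb, followed by Tnc at 5.30 and Hapln1 at 0.136. The Hapln1 mean rested largely on its highest cell. Exon lengths were taken from another annotation (GENCODE M21 on GRCm38) than the counts, which the submitters' processing notes place on GRCm39. The spread over cells was much wider than the gap between these 4 neighbouring genes.

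A few cells held much of the signal of the less frequent genes. The 25 highest cells held 39.1% of the summed CPM of Ncan and likewise 39.1% of Ptprz1, but 58.2% of Serpine2, 60.4% of Vcan, 69.3% of Tnc and 71% of Bcan. For Hapln1 they held 97.7%. The number of members counted in a cell ranged from 0 in 6 cells to all 8 in 23 cells, and 7 members was the most frequent number, in 54 cells. When each cell was thinned to 100000 counts, which left out 22 shallower cells (10 SN and 12 N), Ncan was still counted in 88.9% and Ptprz1 in 84.9% of the remaining cells. The share fell to 38.2% for Bcan, 36.4% for Tnc and 2.22% for Hapln1, so the shares of these low genes depended on depth.

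For 3 members a large share of the reads lay in introns. Introns held 3.39% of the counts of Ncan, 5.10% of Cspg5, 9.38% of Bcan, 10.7% of Tnc and 11.6% of Serpine2. They held 35.9% of the counts of Vcan and 38.0% of Ptprz1, both long genes. Hapln1 had 3642 intron counts against 925 exon counts (79.7% intronic), and 47.4% of cells had intron counts of Hapln1 with no exon count. Most of these exon counts came from its highest cell, at 102.5 CPM of 7140946 exon counts. The strand use of the counting was not given in the sources used here. In GENCODE M21, Vcan was overlapped by the antisense gene Gm4117, which had 2403 exon counts but shared no exon base with Vcan, and Tnc shared some of its 7772 exon bases with an opposite gene that had 14 counts in all. Reads of Vcan introns and of Gm4117 therefore cannot be told apart without strand, while Bcan, Ptprz1 and Serpine2 had no overlapping gene there.

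The region at the gene start is shown for the lectican pair that moved most closely together over clones in the results below (Ncan and Bcan), for Tnc, which moved with Ncan, and for Vcan, which did not. Sequences run 5′ to 3′ on the gene's strand from 250 bases before to 50 after the start, from RefSeq on GRCm38.p6, and capitals mark matches to ACAAT (the core of SOX factor sites), TTGGCA (an NFI motif) or CAGCTG (an E-box), each searched on both strands.
Ncan, chr8:70120795-70121094, minus strand: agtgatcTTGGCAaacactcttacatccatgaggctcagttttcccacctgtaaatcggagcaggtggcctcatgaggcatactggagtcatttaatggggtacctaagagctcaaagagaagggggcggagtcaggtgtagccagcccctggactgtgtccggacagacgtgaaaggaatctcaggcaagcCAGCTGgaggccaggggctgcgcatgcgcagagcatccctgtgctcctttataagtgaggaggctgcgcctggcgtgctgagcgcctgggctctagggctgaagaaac
Bcan, chr3:88000307-88000606, minus strand: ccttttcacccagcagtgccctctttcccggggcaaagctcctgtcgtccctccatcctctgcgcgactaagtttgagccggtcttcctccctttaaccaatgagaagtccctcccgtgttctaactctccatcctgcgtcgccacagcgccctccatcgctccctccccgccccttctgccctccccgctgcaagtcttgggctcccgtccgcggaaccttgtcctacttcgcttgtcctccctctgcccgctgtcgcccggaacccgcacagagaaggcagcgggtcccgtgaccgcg
Tnc, chr4:64046966-64047265, minus strand: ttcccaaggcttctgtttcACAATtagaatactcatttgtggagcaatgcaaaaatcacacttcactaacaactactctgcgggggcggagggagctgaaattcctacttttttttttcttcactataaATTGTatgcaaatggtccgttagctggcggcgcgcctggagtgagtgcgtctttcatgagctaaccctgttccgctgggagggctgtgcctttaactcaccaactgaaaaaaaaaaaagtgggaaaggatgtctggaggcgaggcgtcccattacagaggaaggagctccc
Vcan, chr13:89742463-89742762, minus strand: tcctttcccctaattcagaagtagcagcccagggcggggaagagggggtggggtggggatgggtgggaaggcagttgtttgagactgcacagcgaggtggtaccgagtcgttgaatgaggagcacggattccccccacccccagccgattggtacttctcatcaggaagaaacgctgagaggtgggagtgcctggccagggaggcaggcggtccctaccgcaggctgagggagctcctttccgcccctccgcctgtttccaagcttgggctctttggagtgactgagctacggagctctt
The Ncan window held 1 TTGGCA and 1 CAGCTG match and the Tnc window 2 ACAAT matches, whereas the Bcan and Vcan windows held none of the 3 motifs. Of all 32544 promoter windows in the RefSeq table, 30.8% held ACAAT, 14.1% TTGGCA and 16.4% CAGCTG, so single matches were common. The CpG count was 24 in the Bcan window, against 9 in Ncan, 10 in Tnc, 12 in Vcan and a median of 7 over all windows. The window of Serpine2, which also moved with Ncan, is not shown and held none of the 3 motifs and 41 CpG. Of the others not shown, Ptprz1 held no motif and 29 CpG, and Hapln1 1 ACAAT match and 3 CpG. RefSeq lists a further, overlapping start for Tnc, whose window is not shown and held 1 ACAAT and 1 TTGGCA match. These matches describe letters, and binding was not measured.

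**Figure D1:**
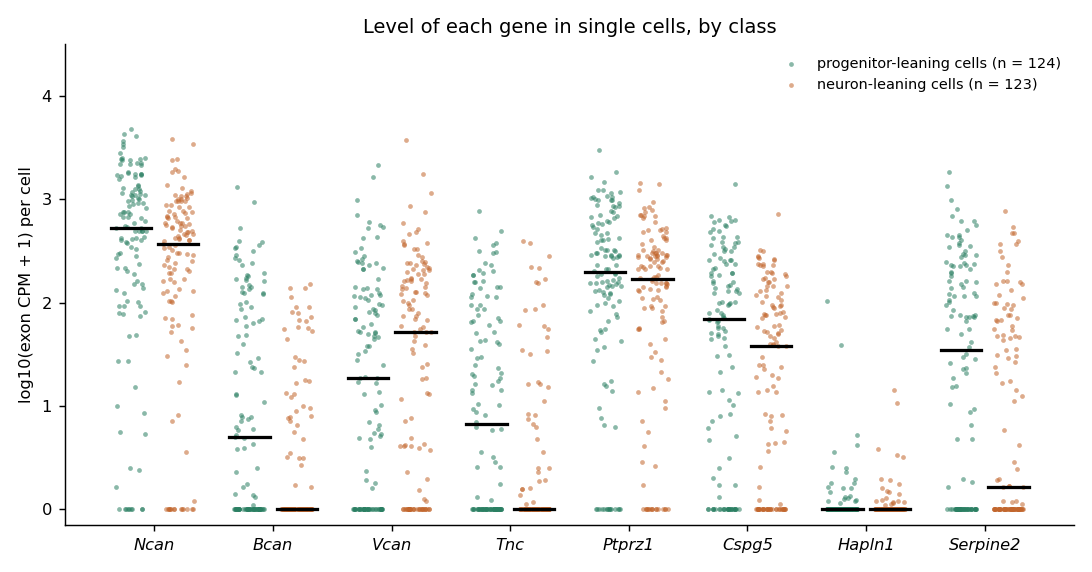
Level of each of the 8 genes in single cells as log10(exon CPM + 1) on the vertical axis, 1 point per cell, in progenitor-leaning and neuron-leaning cells, with a bar at the median of each class. Ncan and Ptprz1 were high in most cells of both classes, while Bcan and Tnc had a median of 0 in neuron-leaning cells and of 3.96 and 5.68 CPM in progenitor-leaning cells.

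To set progenitors against neurons, each cell was given a score, the mean log2(CPM + 1) of the 14 neuron genes minus that of the 14 radial glia genes, none of which is a member, and cells were split at its median of 3.15. The score is a range and not a cell type: it ran from -4.26 to 7.59, 50 cells lay within 0.5 of the split, and progenitor-leaning cells still had counts in a median of 12.5 of the 14 neuron genes. In those cells the summed radial glia genes had a median of 4496 CPM against 1754 in neuron-leaning cells, and the summed neuron genes 7241 against 12021 CPM. Median totals were close, at 1512029 and 1541619 exon counts. The split was uneven over plates, with 26 progenitor- and 64 neuron-leaning cells on plate 1, 61 and 19 on plate 2, and 37 and 40 on plate 3. It was even over clone types, with 66 and 65 cells in SN and 58 and 58 in N.

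Bcan, Tnc and Serpine2 leaned most to the progenitor side. Bcan was counted in 59.7% of progenitor-leaning and 35.0% of neuron-leaning cells, and Tnc in 58.9% and 33.3%. With cells ranked by score into 3 sets of like size, from lowest to highest, Bcan was counted in 63.4%, 51.2% and 27.7% of cells and Tnc in 59.8%, 51.2% and 27.7%. All 10 cells with the most Bcan, from 287.5 to 1317 CPM in 8 clones, were progenitor-leaning. Median Serpine2 was 33.6 CPM in progenitor- and 0.649 in neuron-leaning cells. Median Ncan was 530 against 367 CPM, Cspg5 68.9 against 36.7 and Ptprz1 194.7 against 168.7, so these genes stayed well above 0 on the neuronal side. Vcan ran the other way in its cell medians, 17.6 CPM in progenitor- and 51.5 in neuron-leaning cells, and its 10 highest cells were 5 of each class. Those 10 cells had a median total of 366980 exon counts, the lowest among the 8 members, so their Vcan levels are coarse.

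Within plates the shares of Bcan kept the same order. Progenitor- and neuron-leaning shares were 34.6% and 28.1% on plate 1, 73.8% and 47.4% on plate 2, and 54.1% and 40.0% on plate 3. For Tnc they were 46.2% and 34.4%, 68.9% and 31.6%, and 51.4% and 32.5%. The Serpine2 share went against this order on plate 1, at 46.2% against 57.8%, and Ncan medians did so on plate 3, at 416 against 449 CPM. Over all kept cells, Pearson's r of log2(CPM + 1) with the score was -0.38 for Tnc, -0.35 for Bcan, -0.26 for Serpine2, -0.18 for Cspg5, -0.13 for Ncan, -0.10 for Ptprz1, -0.07 for Hapln1 and 0.04 for Vcan. These coefficients describe cells that share clones, plates and libraries with the score, and over 14970 genes the median was 0.0024, with 0.020% of genes below Tnc and 0.060% below Bcan. Within plates Tnc stood at -0.33, -0.41 and -0.34, Bcan at -0.24, -0.28 and -0.28 and Serpine2 at -0.13, -0.30 and -0.16. The weaker relations did not hold on every plate: Ncan was at 0.03 and Ptprz1 at 0.0066 on plate 1, Cspg5 at 0.018 on plate 3, and with plate means removed Ncan came to -0.04, Ptprz1 to -0.06 and Cspg5 to -0.10. Each member had a larger r with the number of detected genes of the cell, from 0.16 for Hapln1 over 0.39 for Tnc and Serpine2 to 0.47 for Bcan. With the mean of the neuron genes alone r was also above 0, from 0.04 for Hapln1 to 0.34 for Ncan. The part of detected genes in the relations to the score was not tested.

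**Figure D2:**
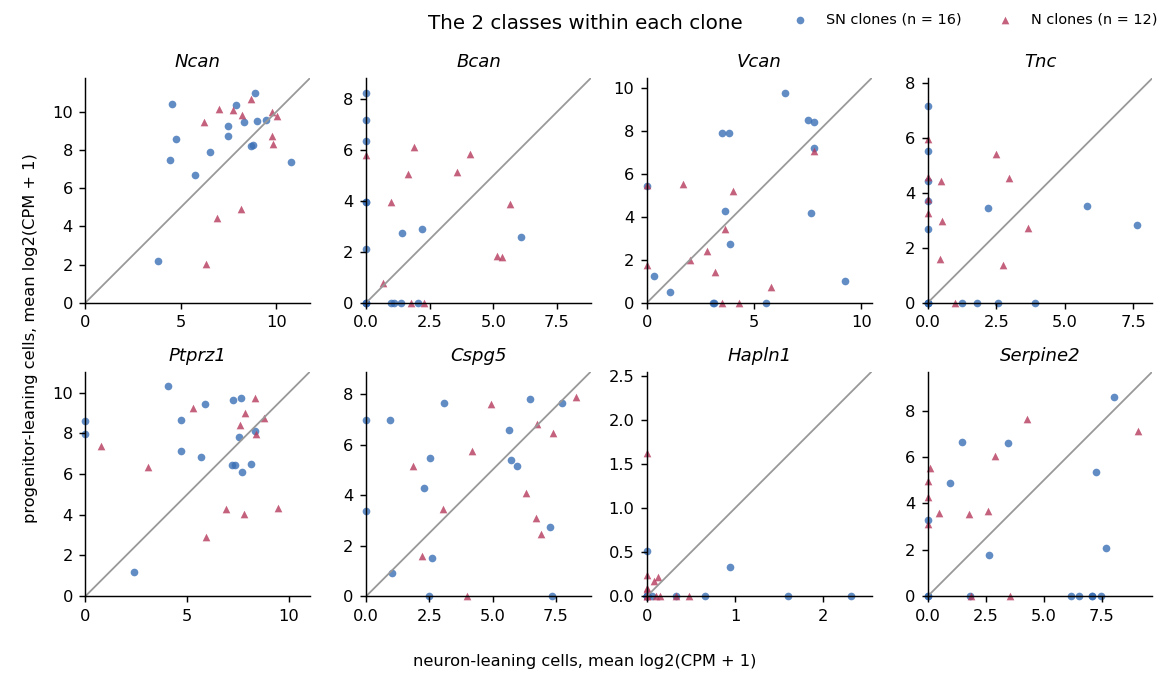
Mean log2(CPM + 1) of progenitor-leaning cells (vertical) against neuron-leaning cells (horizontal) of the same clone, 1 panel per gene and 1 point for each of the 28 clones with both classes, SN and N in different colours. Points lie on both sides of the diagonal for every gene, with 16 of 28 clones above it, higher in progenitor-leaning cells, for Ptprz1.

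A test of the classes within clones did not separate any member. Counts were summed by class in the 28 clones that held both (16 SN, 12 N) and compared with the clone as a block by edgeR's quasi-likelihood test over 7497 genes. None of these genes passed an adjusted p of 0.05 (0%). Without adjustment, 1.59% of them had a p under 0.05 and were higher in progenitor-leaning cells and 0.227% (17 genes) in neuron-leaning cells, and DESeq2 called 520 and limma-voom 2 genes at an adjusted p under 0.05. No member had an unadjusted p under 0.05 in edgeR. Tnc in progenitor-leaning sums ran from 0 over a median of 25.9 to 451 CPM, and in neuron-leaning sums from 0 over 0.494 to 211.5 CPM. The neuron-leaning range lay within the progenitor-leaning range, and the log2 difference was 3.02 ± 1.94 (SE), with an adjusted p of 1 in edgeR. Of 28 clones, 15 were higher on the progenitor side and 4 had no Tnc count in either class. DESeq2 gave a log2 difference of 3.50 ± 0.94 and an adjusted p of 0.00687 for the same sums, so the call for Tnc depended on the tool.

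Like Tnc, the other members differed by less than 2 standard errors in edgeR. Bcan ran from 0 over 22.7 to 308 CPM in progenitor- and from 0 over 4.18 to 109.6 CPM in neuron-leaning sums, a log2 difference of 1.91 ± 1.72. Ptprz1 had medians of 293 and 228.8 CPM and a log2 difference of 0.88 ± 0.66. Ncan had medians of 796 and 508 CPM and differed by 0.46 ± 0.46, higher in 17 of 28 clones. Differences were 0.48 ± 0.90 for Cspg5, 0.39 ± 1.72 for Serpine2 and -0.63 ± 1.22 for Vcan, each with an adjusted p of 1 in edgeR. The median of all genes was itself 0.22, with 60.3% of genes above 0, and 6 of the 7 tested members were above 0, where limma-voom moved Serpine2 to -0.0061. Within plates 1, 2 and 3 Tnc stood at -1.44 ± 2.41, 7.90 ± 3.67 and 3.95 ± 2.84 and Ncan at -0.61 ± 0.87, 1.45 ± 0.76 and 0.23 ± 0.66, beside medians of all genes of -1.50, 1.89 and 0.02. The class difference thus did not hold its direction on plate 1 in 5 of the members, which are Ncan, Tnc, Ptprz1, Cspg5 and Serpine2. Hapln1 did not pass the filter on low counts. With each cell given equal weight in place of its read number, a variant chosen after seeing the data in which no gene passed (0%) and limma was used, Tnc stood at 1.24 ± 0.57 (unadjusted p = 0.0349) and Ptprz1 at 1.24 ± 0.60 (p = 0.0443), with adjusted p-values of 0.999.

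Between clones, the mean score did go with some of the genes. Each of the 62 clones with at least 2 kept cells (42 SN, 20 N) was given the mean score of its cells, which ran from -0.841 to 5.96 with a median of 3.04, and its summed counts were fitted on that mean with plate and clone type as further terms. This comparison was added after the class results had been seen. The N clone 45 lies on plates 2 and 3 and was given plate 3, which holds 7 of its 10 kept cells but only 11.6% of its exon counts. Put on plate 2 instead it left 63 genes called, and without it 58 were called, against the 57 below. In edgeR 57 of 11914 genes (0.478%) passed an adjusted p of 0.05, and 10 of the 57 were themselves score genes. Of the 57, 42 (0.353%) were higher in clones of lower score and 15 (0.126%) in clones of higher score. Of the calls, 26.3% were higher in clones of higher score, a share that was 57% in limma-voom, 27.3% in DESeq2 and 74.9% with equal weight for each cell. At an unadjusted p under 0.05 the counts were 678 (5.69%) and 342 (2.87%). Bcan and Serpine2 were among the 42. So were 6 of the 14 radial glia score genes, while Nes, another of them, stood at -0.12 per unit (adjusted p = 0.95 in edgeR). All 9 cell cycle, all 5 tested astrocyte and 3 of 4 tested oligodendrocyte lineage genes had negative slopes, with 0 calls. A lower score thus does not tell progenitors from cells of the glial lineage.

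Bcan fell by 1.03 ± 0.18 (SE) on the log2 scale for each unit of score, with an adjusted p of 6.77e-04 in edgeR and the fifth smallest p of all genes. The 6 clones of lowest score had 278.6, 0, 190.8, 344, 70.9 and 100.99 CPM of Bcan, and the 6 of highest score had 0, 33.1, 0, 6.39, 3.79 and 0 CPM. Of the 6 low-score clones, 5 lay above all 6 high-score clones and 1 was at 0. The clone with the most Bcan, an SN clone of 2 cells at 706 CPM, had a score of 0.72. The slope was negative within each plate, at -1.39 ± 0.34, -1.07 ± 0.38 and -0.61 ± 0.22, where adjusted p-values were 0.194, 0.999 and 0.711 with about 20 clones each. Limma-voom gave -0.79 and an adjusted p of 0.0588, just above the threshold, while DESeq2 gave -1.08 and 4.06e-08. Serpine2 fell by 0.52 ± 0.13 per unit with an adjusted p of 0.0491, close to the threshold. Without the N clone 16, the largest clone, its adjusted p was 0.0536, and without clone 45 it was 0.0499. On simulated data drawn without clone or plate effects, this fit made false calls at a higher rate than its threshold. That bears on the calls close to it, Serpine2 and Ptn. Within plates Serpine2 stood at -0.31, -0.93 and -0.47.

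The remaining members had negative slopes that did not pass. Ptprz1 stood at -0.28 ± 0.08 per unit of score (adjusted p = 0.0644), Tnc at -0.63 ± 0.22 (0.256), Ncan at -0.21 ± 0.08 (0.304), Cspg5 at -0.13 ± 0.09 (0.791) and Vcan at -0.07 ± 0.11 (0.96). Tnc passed under limma-voom (-0.99, adjusted p = 0.00971), DESeq2 (-0.63, 0.0326) and equal weight for each cell (-0.62, 0.00196), and Ptprz1 under DESeq2 (0.0127). All 7 slopes were below 0, where 45.4% of all genes were above 0 with a median of -0.03, and Vcan turned to 0.04 without the plate term and to 0.09 with equal weight for each cell. In the clone sums fitted here, more cells with a gene and more RNA per cell are not told apart, and they were not fitted separately. The plates differed in score, with clone medians of 3.88, 1.99 and 3.42, while Pearson's r of the score with the log10 exon total of the 62 clones was -0.10, a description of clones that share plates.

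**Figure D3:**
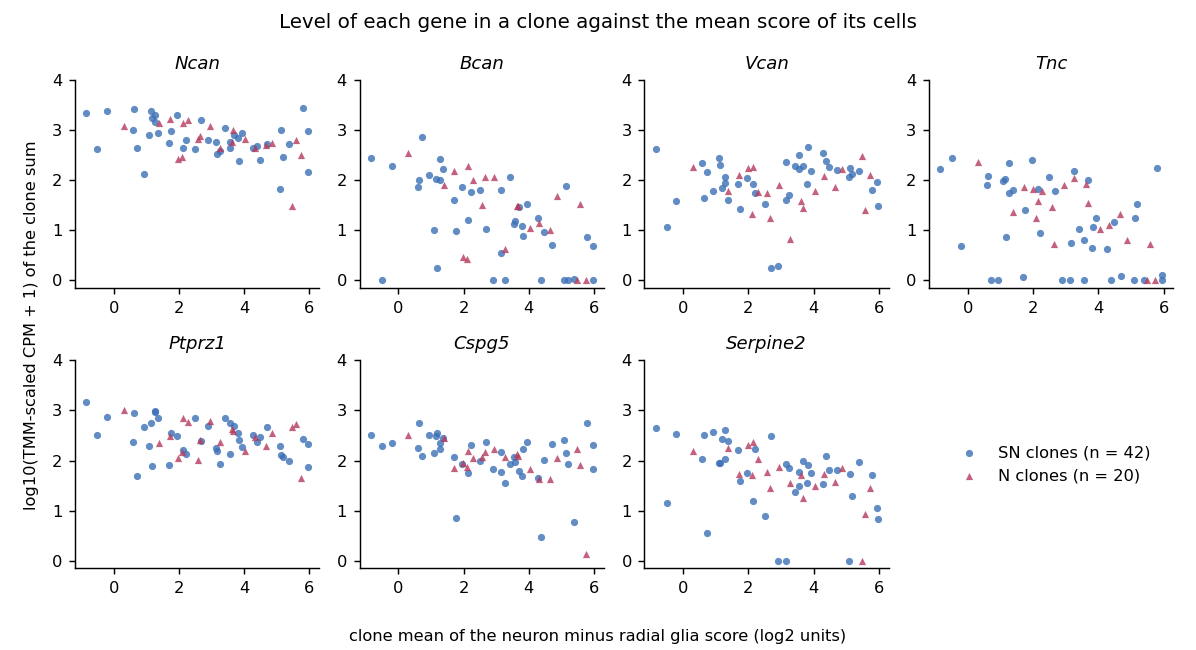
Level of each tested gene in a clone, as log10(TMM-scaled CPM + 1) of its summed counts (vertical), against the mean neuron minus radial glia score of its cells (horizontal, log2 units), 1 point for each of 62 clones, SN and N in different colours. The 6 clones of highest score hold at most 33.1 CPM of Bcan and the 6 of lowest score up to 344 CPM, while Vcan clones lie level, with a slope of -0.07 ± 0.11 per unit of score.

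Summed glial lineage markers were likewise higher in progenitor-leaning cells, on the same side as the medians of Bcan, Tnc and Serpine2 and opposite to that of Vcan. The summed astrocyte markers had a median of 217.3 CPM in progenitor- and 90.8 in neuron-leaning cells, and the summed oligodendrocyte lineage markers 81.4 and 8.14 CPM. Cell cycle genes stood at 608 and 304 CPM. Over all kept cells, which share libraries and depth, r with the oligodendrocyte lineage list ran from 0.0843 for Hapln1 over 0.136 for Vcan to 0.435 for Bcan. With the astrocyte list it ran from 0.0551 for Hapln1 over 0.231 for Ptprz1 to 0.473 for Serpine2. All 7 genes of the oligodendrocyte lineage list and all 6 of the astrocyte list were counted in some cells of both classes, and the highest summed levels in a cell were 1260 and 746 CPM for the former and 2004 and 1714 CPM for the latter in progenitor- and neuron-leaning cells. Of the oligodendrocyte lineage genes, Olig1 was counted in 51.4% of cells, Olig2 in 32.0%, Pdgfra in 25.5%, Mbp in 21.1%, Sox10 in 11.7%, Cspg4 in 8.50% and Gpr17 in 6.48%. Every gene of both lists but S100b was counted in a larger share of progenitor-leaning than of neuron-leaning cells. S100b stood at 8.06% and 8.94%, and Mbp differed little, at 22.6% and 19.5%. The part of cells with glial lineage markers in the levels of Bcan, Tnc and Serpine2 was not tested.

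No member passed the test between SN and N clones, and their ranges overlapped in each. Summed counts of the 42 SN and 20 N clones were compared by edgeR with plate as a term over 11914 genes, and 0 genes passed an adjusted p of 0.05 (0%). At an unadjusted p under 0.05, 39 genes (0.327%) were higher in SN and 1.74% of the genes in N, with none of the members among them. DESeq2 called 2 genes (0.0168%) and limma-voom 1.45% of the genes at an adjusted p under 0.05, no member among either. Ncan in SN clones ran from 64.9 over a median of 621 to 2700 CPM, and in N clones from 29.2 over 649 to 1637 CPM. The ranges coincided over most of their length, and the fitted log2 difference, SN minus N, was 0.29 ± 0.29 (SE) with an adjusted p of 1.

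Ptprz1 ran from 48.8 over 260 to 1481 CPM in SN and from 43.3 over 306 to 996 CPM in N clones, a difference of 0.20 ± 0.29. Cspg5 ran from 1.94 over 140.5 to 572 and from 0.360 over 113.6 to 319 CPM, a difference of 0.50 ± 0.37. Vcan ran from 0.731 over 110.8 to 448 and from 5.74 over 65.2 to 303 CPM, a difference of 0.40 ± 0.40. The ranges of the 2 types overlapped widely in each of these genes. Serpine2 ran from 0 over 63.3 to 442 and from 0 over 51.4 to 228.8 CPM (0.53 ± 0.50). Bcan ran from 0 over 14.6 to 706 and from 0 over 30.2 to 344 CPM (0.29 ± 0.77), and Tnc from 0 over 12.1 to 273.5 and from 0 over 25.5 to 226.4 CPM (0.26 ± 0.73). In Bcan and Tnc the medians were higher in N while the fitted means were higher in SN, and clones without a count were 7 and 9 of 42 in SN and 2 and 2 of 20 in N. The adjusted p in edgeR was 1 for all 7.

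All 7 tested members had fitted differences above 0, where 40.2% of all genes did and the median of all genes was -0.11, but limma-voom, which moved that median to -0.60, put Bcan, Tnc and Serpine2 below 0. On plate 3 alone, 5 of the 7 were below 0, from -0.14 for Cspg5 to -0.79 for Bcan, with Ncan at 0.02 and Tnc at 0.17. All 14 radial glia score genes were likewise above 0, with a median of 0.53 and 1 of them at an unadjusted p under 0.05, and the part of this in the members' values was not tested. Single-cell medians differed most for Vcan (51.3 CPM in SN, 14.2 in N) and Serpine2 (23.0 and 1.39 CPM), whereas Ncan stood at 436 and 441 CPM. The summed oligodendrocyte lineage list had cell medians of 46.6 CPM in SN and 10.8 in N, the astrocyte list 152.6 and 133.2, and the mesenchyme list 2.76 and 19.1.

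**Figure D4:**
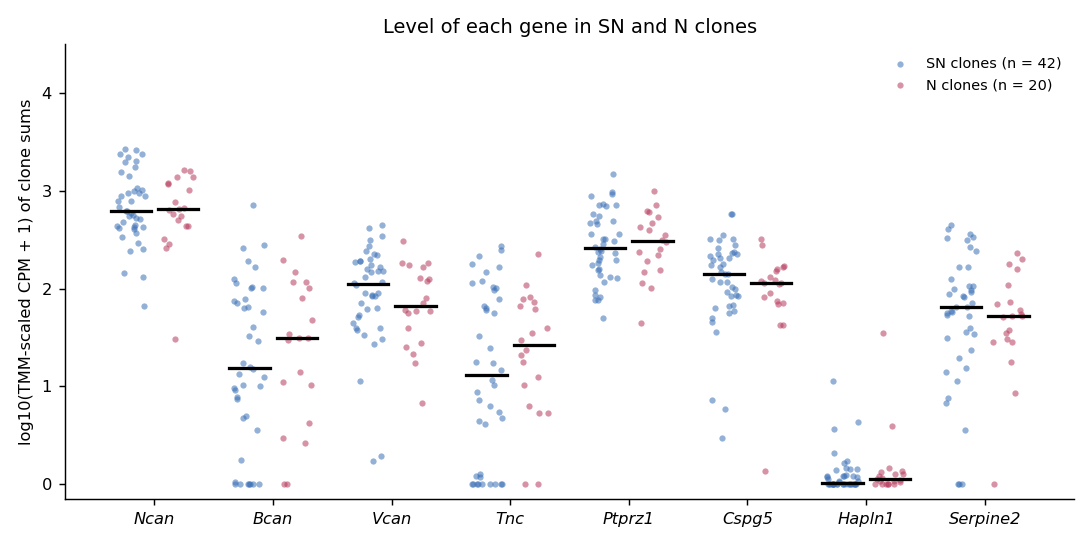
Level of each gene in clones as log10(TMM-scaled CPM + 1) of summed counts (vertical), 1 point per clone, for 42 SN and 20 N clones, with a bar at the median of each type. The 2 types overlap in every gene, with medians of 621 and 649 CPM for Ncan and 110.8 and 65.2 CPM for Vcan.

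Hapln1 was too low in exon counts for this test, with 21 of 42 SN and 6 of 20 N clones at 0 and highest clones at 10.3 and 34.3 CPM. Each of these highest clones had its Hapln1 exon reads in 1 cell, at 38.0 and 102.5 CPM. Here too the SN sums held fewer cells each. In intron counts, where 11050 genes were tested by the same edgeR fit, the SN minus N log2 difference of Hapln1 was -2.40 ± 0.58, with an unadjusted p of 1.01e-04 and an adjusted p of 0.0812, above the threshold of 0.05. Intron counts were an alternative chosen for all members, and no member passed in them.

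Whether the class difference of a member depended on clone type was tested as an interaction in the 28 clones. Of 7497 genes, 0 passed an adjusted p of 0.05 in edgeR (0%), with 6 genes (0.08%) more progenitor-biased in SN and 3.04% of genes more so in N at an unadjusted p under 0.05, and DESeq2 called 1102 genes. Serpine2 was the member at that level: it was higher in progenitor-leaning sums in 6 of 16 SN and in 9 of 12 N clones, with an interaction of -7.12 ± 3.42 on the log2 scale, an unadjusted p of 0.0423 and an adjusted p of 0.998. DESeq2 gave -7.28 ± 1.67 and an adjusted p of 5.77e-04. Of the SN clones, 2 had no Serpine2 count in either class. The median interaction over all genes was -1.25, so the whole distribution leaned the same way.

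Cells of 1 clone resembled each other only slightly in these genes. The share of the variance of log2(CPM + 1) that lay between clones was 14.1 ± 6.5% (SE) for Serpine2, 12.4 ± 6.4% for Tnc, 11.6 ± 6.4% for Vcan, 11.3 ± 6.4% for Cspg5, 10.7 ± 6.3% for Bcan, 8.13 ± 6.1% for Ncan, 2.82 ± 5.7% for Ptprz1 and 0.105 ± 5.4% for Hapln1, over the cells of 62 clones. The median over 14995 genes was 3.53%, and 90.0% of genes lay below Serpine2, so its place was high but not outside that range. With plate means removed the order changed: Vcan stood first at 11.1%, followed by Tnc at 9.11%, Serpine2 at 7.80%, Cspg5 at 6.54%, Ncan at 3.69%, Bcan at 2.65%, Hapln1 at -0.505% and Ptprz1 at -5.48%, beside a median of 1.97% over all genes. Then 80.0% of genes lay below Serpine2 and 89.1% below Vcan. Errors of about 6 points cover most differences between these genes. Ncan was counted in every kept cell of 31 of 42 SN and 14 of 20 N clones. For Bcan this was so in 6 SN and 4 N clones, and the gene was counted in some cells and not in others in 29 SN and 14 N clones, so most clones mixed cells with and without Bcan reads. Tnc was mixed in the same way in 28 SN and 16 N clones and Serpine2 in 26 and 16.

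Over clones the closest pairs were those of Ncan with Bcan, Serpine2 and Tnc, and Vcan stood apart from most members. Pearson's r of log2 CPM over the 62 clones, which share plates and differ in depth, had a median of 0.35 over the 21 pairs of the 7 tested members, against 0.10 for members with all other genes. The closest pair was Ncan and Bcan at 0.57, with 0.48, 0.40 and 0.81 within plates, followed by Ncan and Serpine2 at 0.53 (0.57, 0.15 and 0.86) and Ncan and Tnc at 0.52 (0.55, 0.50 and 0.55). Bcan was about as close to Ptprz1 (0.47) and Cspg5 (0.46) as to Serpine2 (0.46, with 0.04 on plate 1), and less close to Tnc (0.40). Tnc and Serpine2 stood at 0.47. Vcan had coefficients from -0.11, with Ncan, to 0.20, with Serpine2. Serpine2 was no closer than that to Ptprz1 (0.17) and Cspg5 (0.14). On plate 3 alone Cspg5 had -0.11 with Ncan, -0.06 with Tnc, -0.05 with Serpine2, 0.03 with Bcan, 0.12 with Ptprz1 and 0.23 with Vcan. None of the 3 motifs was in the windows of all of Ncan, Bcan and Tnc, although TTGGCA was in both the Ncan window and that of the further Tnc start.

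**Figure D5:**
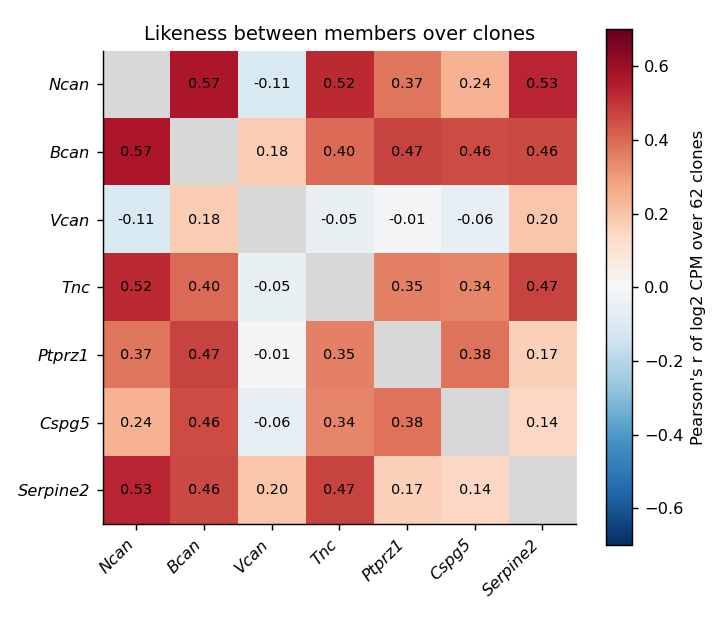
Pearson's r of log2 CPM over 62 clones for each pair of the 7 tested genes, as a colour from low to high. The 6 pairs among Ncan, Bcan, Tnc and Serpine2 lie between 0.40 and 0.57, and the pairs of Vcan between -0.11 and 0.20. Bcan also stands at 0.47 with Ptprz1 and 0.46 with Cspg5.

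Up to 3 genes most like each member over the 62 clones were taken by Pearson's r of log2 CPM. Ncan was followed by Plpp3 (r = 0.66), a lipid phosphatase, Mmd2 (0.66) and Pea15a (0.63). Bcan was followed by Ednrb (0.66), the endothelin receptor B, Olig1 (0.62), a transcription factor of the oligodendrocyte lineage, and Dhx30 (0.61). Ptprz1 was followed by Mfge8 (0.65), which is one of the radial glia score genes, Scd2 (0.62), a fatty acid desaturase, and Slc6a11 (0.56), a GABA transporter. Cspg5 was followed by Ptn (0.56), the secreted growth factor pleiotrophin. Tnc had Ppp1r16b (0.61), Ak3 (0.61) and Sash1 (0.59). Serpine2 had Cyhr1 (0.77), Polr1d (0.72) and Osgep (0.69), none of them a marker of the lists used here. Vcan had no gene above 0.55, with Sirt1 (0.55), 0610010F05Rik (0.54) and Gm37018 (0.54).

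Among the partners of the members, the ligand Ptn was the one called. Of 22 ligands and receptors, 19 were tested against the clone score and 1 passed, Ptn, at -0.30 ± 0.07 per unit of score and an adjusted p of 0.0348 in edgeR. Within clones Ptn had medians of 478 CPM in progenitor- and 236.7 CPM in neuron-leaning sums and was higher on the progenitor side in 20 of 28 clones, a log2 difference of 1.38 ± 0.45 with an unadjusted p of 0.00322 and an adjusted p of 1, while DESeq2 gave 1.32 and 0.00154. Mdk, midkine, stood at 0.83 ± 0.69 and did not pass in either tool. The 22 genes held 0 calls between SN and N and 0 in the classes by edgeR. Mean levels over cells were 343 CPM for Ptn, 140 for Mdk, 270 for Ptprs, a phosphatase that binds chondroitin sulphate, and 108.7 for Cntn2 and 66.6 for Cntn1, adhesion proteins of axons.

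Genes that build the chondroitin sulphate chains held no call in any of these comparisons by edgeR. Of 21 genes, 15 were tested between clone types, 5 above and 10 below 0, with Chst12, a chondroitin sulfotransferase, at -2.30 ± 1.09 SN minus N (unadjusted p = 0.0392, adjusted p = 1). Of the 8 tested in the classes, B4galt7, which adds the first galactose of the linker, was higher in progenitor-leaning sums in 20 of 28 clones at 4.58 ± 1.75 (unadjusted p = 0.0114), and Chst15, a sulfotransferase, was higher in neuron-leaning sums in 19 of 28 at -2.91 ± 1.40 (0.0435). B4galt7 had no count in either class in 2 of the clones, and Chst15 in 5. The adjusted p of both genes was 1 in edgeR, and DESeq2 called both, at 5.54 and -3.25. Of 16 genes for hyaluronan synthesis and turnover, link proteins and other lecticans and tenascins, 6 were tested between clone types and in the clone score, with 0 calls. Acan, the lectican of perineuronal nets, was counted in 12 cells and Tnr, the other brain tenascin, in 89 cells. The hyaluronan synthases Has2 and Has3 were counted in 24 and 51 cells, so both were seen in a minority of cells.

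Among heparan sulphate proteoglycans and their enzymes 21 of 22 genes were tested between clone types, with 0 calls, and Hspg2, the basement membrane proteoglycan perlecan, stood at -2.14 ± 0.95 SN minus N (unadjusted p = 0.0282, adjusted p = 1). Of 16 basement membrane and fibronectin genes, 15 were tested: 12 were below 0 between SN and N and 14 below 0 against the clone score, with a median of -0.30 per unit and 0 calls in both by edgeR. The proteases and inhibitors of the matrix, a list of 21 that does not include Serpine2, had 14 genes tested against the clone score, 5 above and 9 below 0, and 0 calls. Of 13 other proteoglycans, 9 were tested there with 0 calls. Lists had no test of their own, and their counts stand beside the 0.478% of all genes called against the clone score.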

How the data were processed

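Single-cell libraries of mouse organoids were used as deposited by the authors: whole-number exon counts and, for 1 alternative, intron counts per gene and cell, raw and not normalized. The submitters' processing notes name STAR 2.7.9a, R 4.4.0 and GRCm39; the annotation, the counting program and the use of UMIs or strand are not given in the sources used here. Of all libraries, 3 had no group in the labels and entered no comparison. Gene identifiers were matched to symbols through a reference table (52083 of 55359 matched).

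CPM per cell is relative to the total exon count, which ran from 6171 to 13040432 in kept cells, so values of shallow cells are coarse. Counts were summed by clone, or by clone and class, and tested with edgeR 4.0.16 (filterByExpr, TMM, quasi-likelihood test, Benjamini-Hochberg over all tested genes, threshold 0.05) in R 4.3.3; library sizes were taken over tested genes. SE is the log2 difference divided by the root of F. Both classes of a clone come from the same clone, which is the pairing behind the block. Pearson's r over clones used log2 CPM with a prior count of 2. DESeq2 1.42.0, limma 3.58.1, other filters, depth limits, plates alone, intron counts, equal weight per cell and leaving out the largest clone were tried; equal weight scaled each cell by the TMM factor of its sum. Fits were tested on simulated cells drawn independently, with no clone or plate effect. There the share of false calls stayed under the threshold between clone types and in the classes by edgeR. It exceeded the threshold in the fit on the clone mean score and in the classes with equal weight. Without those effects, such shares cannot show the rate of false calls in the real cells. A clone was given the plate of most of its labelled cells, which for clone 45 is not the plate of most of its counts. The fit on the clone mean score, and equal weight for classes and interaction, were added after seeing the data. Python 3.11.15 with pandas 2.3.3, scipy 1.17.1 and matplotlib 3.10.9 did the rest.

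The members and the gene lists were chosen with earlier results of these data known. Named genes are the members, the 3 most like each over clones (for Cspg5 only the first is reported here), and list genes among the 3 smallest p of their list in a comparison; marker genes serve as checks, and Acan, Tnr, Has2, Has3, Ptprs and Cntn1 are given as levels.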

Additional observations from a re-analysis of the deposited data

Results flagged for a closer look

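Hapln1 showed a signal in the intron counts, which the main comparisons do not use: 47.4% of kept cells had intron counts of Hapln1 and no exon count, and its intron counts (3642) exceeded its exon counts (925). Gm8546, a pseudogene on the opposite strand within Hapln1 in GENCODE M21, had 52 exon counts in all libraries, and its part in the intron reads was not tested.

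Members were also seen in libraries without a group label. The first of these, with 1689914 exon counts in 4954 genes, had 6 members above 3 exon counts, among them Cspg5 at 959, Ncan at 343, Serpine2 at 247.9 and Ptprz1 at 222.5 CPM, with Vcan at 0. The second, with 5976683 counts in 13298 genes, had 7 members above 3 counts, with Ncan at 1250, Ptprz1 at 563 and Tnc at 191.2 CPM. In the third, with 2257 counts in 130 genes, all 8 members were at 0.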

How the results depend on the processing

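Shares of tested genes called moved as follows. Between SN and N, against 0%, DESeq2 called 0.0168% (2 genes), limma-voom 1.45% (1 gene higher in SN), the fit with no filter on low counts 17.4% (6861 genes, 29.6% of them higher in SN), and cells with at least 2000 detected genes 0.0169% (2 genes). For classes limma-voom called 0.0267% (2 genes) and DESeq2 6.94% (520 genes, 80.6% of them higher in progenitor-leaning cells), and for the interaction DESeq2 called 14.7% (1102 genes). For the clone mean score, against 0.478%, limma-voom called 1.50%, DESeq2 3.59% and equal weight 1.54%, and plates 1, 2 and 3 alone 0, 0.0173 and 0.00935%, with fewer clones in each. Other causes were not tested. With no replicate block, that is without the clone in the model, the classes also gave 0 calls, and Serpine2 turned to -0.17.

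Signs of single genes turned as follows. Between SN and N: intron counts, Ncan -0.86 and Cspg5 -0.94; limma-voom, Bcan -0.83, Tnc -1.49 and Serpine2 -0.086; equal weight, Bcan -0.14, Tnc -0.11 and Ptprz1 -0.26; plate 1 alone, Tnc -0.010 and Chst12 0.80; plate 3 alone, Bcan -0.79, Vcan -0.25, Ptprz1 -0.23, Cspg5 -0.14 and Serpine2 -0.21; clones of 4 to 6 cells, Tnc -1.46. In the classes: plate 1 alone, Ncan -0.61, Tnc -1.44, Ptprz1 -0.67, Cspg5 -1.25 and Serpine2 -8.41; plate 2 alone, Vcan 0.022; plate 3 alone, Cspg5 -0.065; intron counts, Vcan 0.95; outer parts of the score, Cspg5 -0.63; limma-voom, Serpine2 -0.0061; at least 100000 counts, Serpine2 -0.056; equal weight, Serpine2 -0.20. In the interaction: equal weight, Ncan 1.18, Vcan -0.027 and Cspg5 1.41; outer parts of the score, Vcan -2.98 and Cspg5 5.74; without clone 16, Vcan -0.42. In the clone score Vcan stood at 0.043 with no plate term, 0.095 with equal weight, and 0.017 and 0.28 on plates 1 and 3 alone. None of these single values passed an adjusted p of 0.05.

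On plate 3 alone without clone 45, which lies on 2 plates, the share called was 0.0144% (1 gene) for classes and 0.00917% (1 gene) for the clone score, and these signs differed from those over all plates: between SN and N, Ncan -0.0013, Bcan -0.78, Vcan -0.35, Ptprz1 -0.32, Cspg5 -0.11 and Serpine2 -0.35; in the classes, Vcan 0.18 and Cspg5 -0.45; in the clone score, Vcan 0.26. Over all plates, leaving out clone 45 or putting it on plate 2 turned no member's sign and changed no member's call in the fits run, though Serpine2 in the classes came to 0.055 without it. These settings were chosen after seeing the data.

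Of 84 pair correlations under alternatives, 20 moved beyond their spread, all on plates alone. Depth limits the genes of low level: Hapln1 could not be tested in exon counts, and shares of Bcan and Tnc moved when cells were thinned. Of the clones, only clones 16 and 45 were each left out, since groups exceed 5.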
